A study of Arabidopsis thaliana with 24 samples.

Results

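The cadmium response of wild-type Arabidopsis thaliana roots was set beside that of wild-type shoots, on the 12 wild-type (WT, accession Col-0) arrays of a series of 24. The arrays fall into 4 groups of 3: untreated roots, roots after 18 h with cadmium chloride, untreated shoots, and shoots after 24 h with cadmium chloride. The labels call the 3 arrays of a group biological replicates. Plants were grown on agar with sucrose and then in hydroponic culture, where cadmium was added to the nutrient solution. The design text gives 50 µM cadmium chloride and the protocols give 50 mM, so the dose is uncertain. The other 12 arrays come from oas-a1.1, a T-DNA insertion line, sampled in the same way. Each organ was sampled at its own hour of treatment, so organ and hours cannot be told apart in any comparison of roots with shoots given here. The hour of day at which untreated organs were taken is not given in the sources used here, and harvest hour and cadmium cannot be told apart for genes with a daily rhythm.

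Cadmium is a toxic metal that enters roots through transporters of essential metals and is partly carried to the shoot in the xylem. Inside cells it binds thiols, and plants bind it with glutathione and with phytochelatins, peptides made from glutathione, before it is stored in vacuoles. Roots meet the metal directly, whereas leaves meet what is transported to them together with changes in water and mineral supply.

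Values are log2 expression values, so a difference of 1 is 2-fold. The 12 arrays had medians of 5.33 to 5.47. Arrays of a group correlated at 0.971 to 0.993, arrays of an organ with the other treatment at 0.954 to 0.980, and roots with shoots at 0.726 to 0.755. Organ markers matched the labels. PYK10, a beta-glucosidase stored in the ER bodies of roots, lay at 11.86 to 12.85 on the root arrays and 4.19 to 4.67 on the shoot arrays, and RCA (rubisco activase) lay at 6.12 to 7.77 in roots and 12.30 to 12.88 in shoots. The mean over 24 nuclear photosynthesis probe sets was 5.63 to 5.96 in untreated and 5.72 to 5.88 in treated roots, and 9.24 to 9.35 in untreated and 9.34 to 9.52 in treated shoots. The control probe set for 25S ribosomal RNA was below 7 on 4 arrays: untreated shoot replicates 1 (4.95) and 2 (5.68), treated root replicate 1 (5.60) and treated shoot replicate 1 (5.16). On the other 8 arrays it was 7.72 to 11.96. Calls without and with the 25S value as a covariate in the fit were 1250 and 1314 in roots and 1131 and 1330 in shoots. Differences between organs were 1091 and 1065. Whether this RNA signal is a cause of any result was not tested. Leaving out those 4 arrays keeps 1 untreated shoot array. Without them most named root calls held, and most named shoot calls and most named differences between organs were lost. For most of the genes described below, each call lost in this way is given with its value and adjusted p.

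Few calls were shared between the organs. In roots 1250 of 22746 probe sets passed limma's test at an adjusted p under 0.05 (5.5%), 495 higher with cadmium and 755 lower. In shoots 1131 passed (4.97%), 606 higher and 525 lower. With quantile normalization repeated on these values the root split was 702 higher and 746 lower, and 682 and 732 where it was repeated within each organ. Without untreated shoot replicate 3 the shoot split turned to 624 higher and 930 lower. Whole organs were measured, so fewer cells of a type and less RNA per cell cannot be told apart. Both organs shared 220 of these calls, which are 17.6% of the root calls and 19.5% of the shoot calls. Both shares are above the rates over all probe sets, 4.97% called in shoots and 5.5% in roots. The tests of the organs use one estimate of the spread, so their calls are not independent. Of the 220, 62 rose in both organs, 78 fell in both, 60 fell in roots and rose in shoots, and 20 rose in roots and fell in shoots. The root and shoot differences correlated at 0.058 over the 22746 probe sets and at 0.15 over the 2161 called in either organ. These are descriptions across probe sets of the same arrays, which are not independent replicates.

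The difference between the organs was itself tested, as the root response minus the shoot response, and 1091 probe sets passed (4.8%), 413 higher in roots (1.82%) and 678 higher in shoots (2.98%). Without untreated shoot replicate 3 these were 757 and 723, and with quantile normalization repeated 642 and 735. A response was called confined to an organ where it passed in that organ, did not pass in the other, and the difference passed. By that rule 456 probe sets responded in roots alone, 178 higher and 278 lower, and 389 in shoots alone, 238 higher and 151 lower. Not passing in the other organ does not show that nothing changed there. In shoots, treated and untreated arrays did not overlap for 34 of 178 root-alone rises and 95 of 278 falls (19.5% of all probe sets). In roots they did not overlap for 53 of 238 shoot-alone rises and 55 of 151 falls (16% of all). Because the difference had to pass, the rule favours changes of opposite sign between organs. With quantile normalization repeated the root-alone split was 285 higher and 286 lower (278 and 275 within each organ), without treated root replicate 2 it was 182 and 177, and without untreated shoot replicate 3 the shoot-alone split turned to 258 higher and 427 lower. A further 574 root calls (55.7% of those not called in shoots) and 522 shoot calls (57.3%) had no called difference, so they are not shown to be confined to that organ. In another 143 probe sets the difference passed although neither organ did. Without the 4 arrays low in 25S, 142 root-alone, 67 shoot-alone, 17 shared rising, 22 shared falling and 12 opposed probe sets were left.

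**Figure D1:**
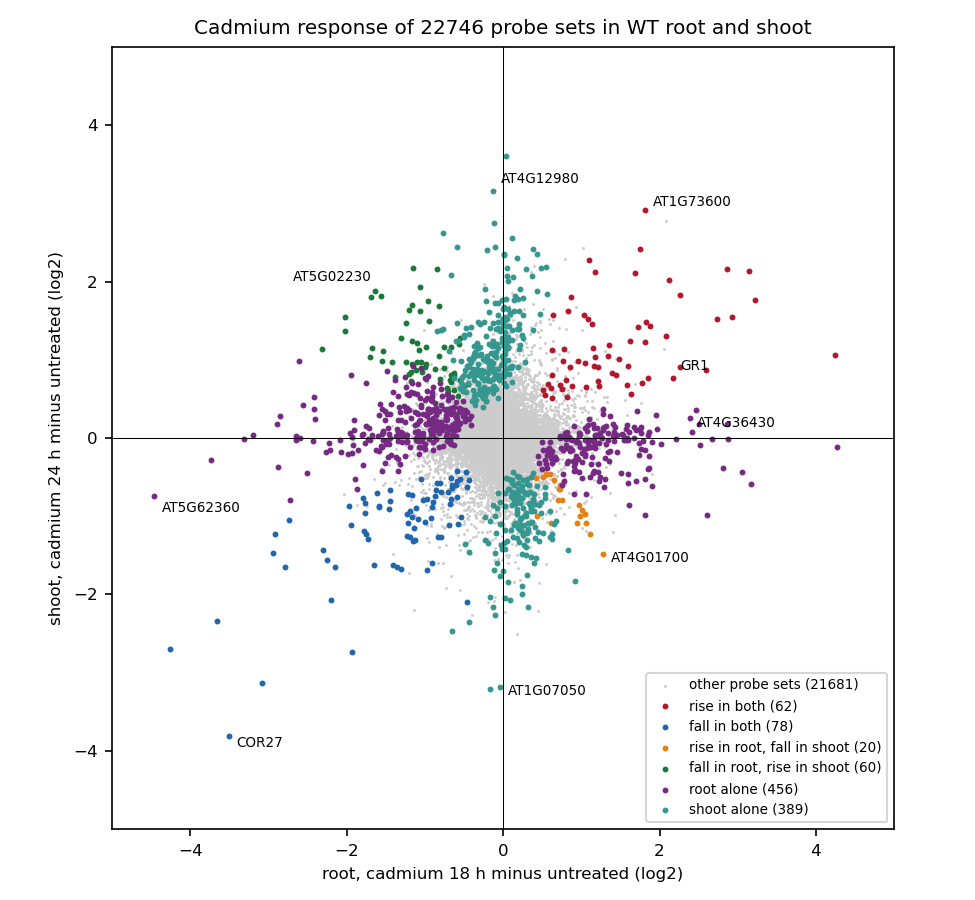
Each point is 1 of 22746 probe sets, with the log2 difference between cadmium for 18 h and untreated roots on the x axis and that between cadmium for 24 h and untreated shoots on the y axis (means of 3 arrays each). Colours mark the classes by limma calls, with their numbers in the key; the opposed classes of 60 and 20 lie in the upper left and lower right, and most coloured points lie along the axes.

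Shared rises included an enzyme of the glutathione cycle. GR1 (AT3G24170), a glutathione reductase that regenerates reduced glutathione, was at 7.42, 7.41 and 7.32 in untreated roots and 9.80, 9.37 and 9.48 in treated roots. In shoots it was at 7.56, 7.77 and 7.43 untreated and 8.45, 8.37 and 8.25 treated. Every treated array lay above every untreated array of its organ, a separation in either direction that 16% of all probe sets showed in roots and 19.5% in shoots. GR1 rose by 2.17 ± 0.13 (SE, n = 3 against 3) in roots and 0.77 ± 0.13 in shoots, with limma adjusted p of 2.43e-06 and 0.00572. The root rise was larger by 1.40 ± 0.19 (limma adjusted p = 0.0015). Without the arrays low in 25S the shoot rise was 0.88 with an adjusted p of 0.0697, and the difference still passed at 0.0457.

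CYP71B26 (AT3G26290), a cytochrome P450, began from different levels in the organs. It was at 5.59, 5.57 and 5.81 in untreated roots, 7.56, 7.34 and 7.25 in treated roots, 8.42, 8.15 and 8.36 in untreated shoots, and 9.78, 9.86 and 9.54 in treated shoots. Untreated shoots already stood above treated roots, and both organs rose, by 1.73 ± 0.13 and 1.42 ± 0.13 (limma adjusted p of 1.28e-05 and 9.53e-05). The difference of 0.31 ± 0.18 did not pass (0.463). UGT72E1 (AT3G50740), a glucosyltransferase that acts on lignin precursors, rose by 1.35 ± 0.20 in roots and 1.19 ± 0.20 in shoots (limma adjusted p of 0.002 and 0.00576). Its arrays were at 7.44, 6.80 and 7.57 before and 8.53, 8.52 and 8.81 after cadmium in roots, and 8.56, 8.24 and 8.46 before and 9.32, 9.62 and 9.90 after it in shoots. The shoot call was lost without the arrays low in 25S (rise 1.30, adjusted p = 0.15). EXGT-A3 (AT2G01850), a xyloglucan endotransglucosylase/hydrolase that cuts and rejoins wall polymers, rose by 0.62 ± 0.13 in roots and 1.13 ± 0.13 in shoots. Its root call (limma adjusted p = 0.0171) was lost without untreated root replicate 2 or treated root replicate 3 (0.0577 and 0.066). With the low-25S arrays left out, both its calls were lost, at 0.59 in roots (0.0938) and 1.19 in shoots (0.0756).

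Other shared rises carry only a locus identifier in the annotation used here, so no role is given for them. AT1G73600 was at 8.26, 8.19 and 8.16 in untreated roots, 10.12, 9.99 and 9.96 in treated roots, 7.56, 8.04 and 7.94 in untreated shoots and 10.71, 11.06 and 10.52 in treated shoots. The groups did not overlap in either organ. Its rise was 1.82 ± 0.15 in roots and 2.92 ± 0.15 in shoots, and the shoot rise was the larger, with a difference root minus shoot of -1.10 ± 0.22 (limma adjusted p = 0.0142). AT3G56290 rose by 1.81 and 1.23, AT4G23670 by 1.18 and 1.03, and AT4G02920 by 1.05 and 0.96, in roots and shoots respectively. The shoot call of AT4G23670 was lost without untreated shoot replicate 1 (adjusted p = 0.0647). On the 8 arrays not low in 25S, the shoot rises of AT3G56290, AT4G23670 and AT4G02920 were 1.02, 1.04 and 0.97 (adjusted p of 0.103, 0.137 and 0.184), and the organ difference of AT1G73600 was -1.08 (0.131), none of which passed. Of the 62 shared rises, 21 have a single listed gene, and 9 of the 10 largest have none. The largest of all, which has no listed gene, rose by 2.87 in roots and 2.17 in shoots.

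Among shared falls, COR27 stood first. COR27 (AT5G42900) is a cold-regulated gene whose product acts in the circadian clock and in cold tolerance. It was at 7.56, 8.27 and 7.77 in untreated and 4.50, 4.24 and 4.34 in treated roots, and at 8.72, 9.14 and 9.36 in untreated and 5.16, 5.18 and 5.46 in treated shoots. The highest treated array lay over 3 log2 units below the lowest untreated array in each organ. COR27 fell by 3.51 ± 0.20 in roots and by 3.81 ± 0.20 in shoots (limma adjusted p of 1.43e-06 and 2.36e-06), and the difference of 0.30 ± 0.28 did not pass (0.702). AT4G33980 fell by 2.92 ± 0.18 in roots, where it went from 7.95, 7.67 and 7.68 to 4.45, 4.86 and 5.24. In shoots it went from 7.75, 7.63 and 7.66 to 6.24, 6.58 and 6.52, and it dropped by 1.23 ± 0.18. Its untreated level was nearly the same in both organs, and the root fall was larger (difference -1.68 ± 0.25, limma adjusted p = 0.00308). When the arrays low in 25S were left out, its shoot difference was -1.11 (adjusted p = 0.0768). Both genes belong to lists of genes with daily rhythms and of cold response, and the design does not separate cadmium from harvest hour.

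TUB9 (AT4G20890), a beta-tubulin chain of microtubules, fell to a like extent in both organs. It was at 9.59, 9.75 and 9.73 in untreated and 8.77, 8.44 and 8.17 in treated roots, and at 9.57, 9.68 and 9.57 in untreated and 8.48, 8.22 and 8.36 in treated shoots. TUB9 fell by 1.23 ± 0.14 in roots and by 1.25 ± 0.14 in shoots (limma adjusted p of 0.000335 and 0.000398), and no single array decided either call. LCR69 (AT2G02100), a small cysteine-rich protein of the plant defensin family also named PDF2.2, fell by 1.65 ± 0.30 and by 1.62 ± 0.30 (0.00625 and 0.00827). Its treated shoot arrays were at 8.23, 6.80 and 7.09, against 8.99, 8.81 and 9.19 untreated, so replicate 1 fell less than the other 2. EXLA1 (AT3G45970), an expansin-like wall protein, fell by 2.15 ± 0.40 in roots (limma adjusted p = 0.00732) and by 1.65 ± 0.40 in shoots (0.0355). Untreated shoot replicates 1 and 2 were at 8.72 and 8.97 and replicate 3 was at 7.36, against 6.95, 7.10 and 6.04 with cadmium. Its shoot call was lost without untreated root replicate 2, untreated shoot replicate 1 or 2, or any 1 of the 3 treated shoot arrays (0.0531 to 0.154). After the low-25S arrays were left out, its shoot difference was -0.79 (adjusted p = 0.822).

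The other shared falls led by size were AT3G59350, which dropped by 1.93 in roots and by 2.73 in shoots, AT1G29670, by 1.41 and by 1.62, and AT2G28080, by 1.36 and by 1.65. The calls of AT3G59350 and AT1G29670 held when any 1 array was left out. For AT2G28080 the root call was lost without untreated root replicate 1 or 3 or treated root replicate 2 or 3 (adjusted p 0.0509 to 0.118), and the shoot call without untreated or treated shoot replicate 2 (0.0542 and 0.0572). Once the arrays low in 25S were left out, its shoot difference was -1.43 (0.213). AT1G29670 differed greatly in level, at 6.33, 5.83 and 5.89 in untreated roots and 10.98 to 11.01 in untreated shoots, and its changes differed by 0.21 ± 0.26, which did not pass (0.804). Median responses were 1.22 in roots and 1.02 in shoots over the 62 shared rises, and -1.16 and -0.98 over the 78 shared falls; these describe probe sets chosen by passing in both organs. Of the 140, 23 had a called difference between organs, and in 19 of those the root change was the larger. The other 117 are not shown to respond alike, since their differences ran from -1.32 to 1.01 with a median SE of 0.24 over the 140.

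**Figure D2:**
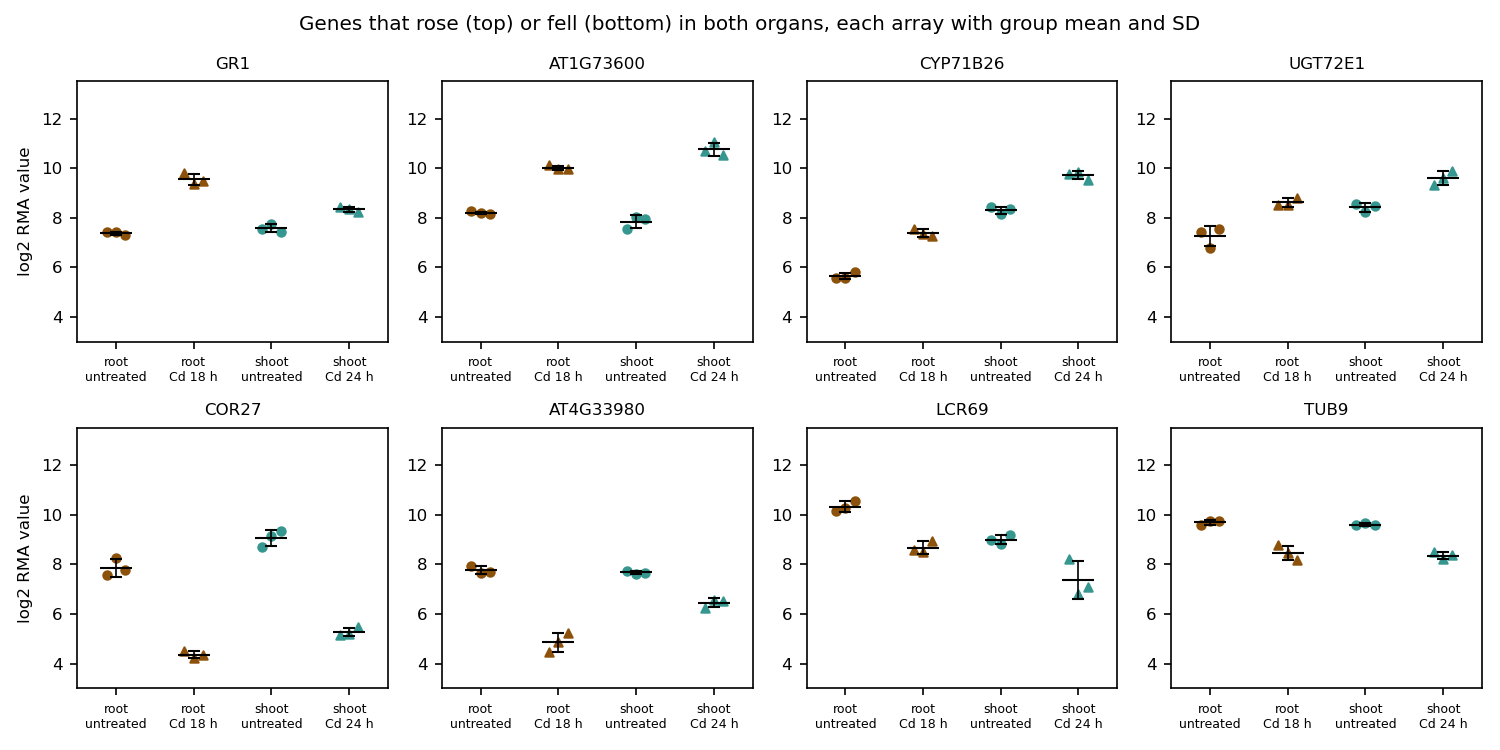
Log2 expression value of 8 genes on each of the 12 WT arrays (brown root, teal shoot; circles untreated, triangles cadmium; black marks the group mean with SD, n = 3). GR1, AT1G73600, CYP71B26 and UGT72E1 lie higher with cadmium in each organ, and COR27, AT4G33980, LCR69 and TUB9 lie lower; GR1 rises more in roots and AT4G33980 falls more there.

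Opposed responses ran mostly one way: of 80 probe sets, 60 fell in roots and rose in shoots, and 20 rose in roots and fell in shoots. These were 66 and 39 with quantile normalization repeated, 67 and 44 without untreated shoot replicate 3, and 12 and 0 without the arrays low in 25S. At 2-fold or more in each organ there were 19 and 3, where 1.3% of all probe sets fell and 0.91% rose that far in roots and 1.16% rose and 0.879% fell that far in shoots (2.21% and 2.04% in either direction). ATG8E (AT2G45170), a ubiquitin-like protein that is attached to forming autophagosomes, was at 8.95, 8.62 and 8.82 in untreated roots and 8.22, 8.09 and 8.09 in treated roots. In shoots it was at 7.62, 7.59 and 7.48 untreated and 8.58, 8.93 and 8.67 treated. The untreated order, roots above shoots, was turned round with cadmium. ATG8E fell by 0.66 ± 0.12 in roots and rose by 1.16 ± 0.12 in shoots (limma adjusted p of 0.00717 and 0.00021), and the responses differed by -1.83 ± 0.17 (0.000164). All 3 of these calls held when any 1 array was left out and without the arrays low in 25S.

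GSTU20 (AT1G78370), a tau-class glutathione S-transferase, a family that joins glutathione to other molecules, was at 5.94, 5.71 and 5.69 in untreated and 5.29, 5.18 and 5.20 in treated roots. In shoots it was at 8.08, 7.86 and 8.06 untreated and 9.24, 9.08 and 9.51 treated. Each organ's treated arrays lay outside its untreated range, on opposite sides. GSTU20 fell by 0.56 ± 0.13 in roots and rose by 1.28 ± 0.13 in shoots (limma adjusted p of 0.0254 and 0.000143), a difference of -1.83 ± 0.18 (0.000198). The root call was lost without untreated root replicate 1 or 2 or treated root replicate 2 or 3 (0.061 to 0.111), whereas the difference passed with any 1 array left out. Without the arrays low in 25S the root and shoot differences were -0.59 (0.0831) and 1.24 (0.0555), and the difference between organs passed (0.0269).

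The 4 single-gene probe sets that led the fall in roots and rise in shoots carry locus names. AT5G02230 was at 8.70, 8.52 and 7.59 in untreated roots, 6.95, 6.34 and 6.45 in treated roots, 6.04, 5.52 and 6.20 in untreated shoots and 7.52, 7.93 and 7.73 in treated shoots. It fell by 1.69 ± 0.28 and rose by 1.81 ± 0.28, so that the organs exchanged places. AT5G19120 varied little within groups, at 11.14, 10.92 and 10.95 in untreated and 9.85, 9.75 and 9.90 in treated roots, and 7.67, 7.80 and 7.59 in untreated and 9.32, 9.65 and 9.20 in treated shoots. Its organs were more than 3 log2 units apart without cadmium and less than 1 apart with it. AT5G19120 fell by 1.17 ± 0.13 and rose by 1.70 ± 0.13 (limma adjusted p of 0.000232 and 2.74e-05; difference -2.87 ± 0.18, 3.15e-05). AT4G16000 fell by 1.57 and rose by 1.82, and AT3G15450 fell by 1.20 and rose by 1.64. The calls of these 4 held when any 1 array was left out. With the low-25S arrays left out, the shoot rises of AT5G02230 and AT4G16000 were 1.63 and 1.93 with adjusted p of 0.151 and 0.074, while their differences passed at 0.0227 and 0.0174.

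Chosen after their values were seen, because they have a gene symbol, 3 more genes of this class are AKINBETA1, SIS and SDP1. AKINBETA1 is a regulatory subunit of the SnRK1 kinase, which is active when energy is short, and it fell by 1.43 in roots and rose by 0.97 in shoots. SIS was at 7.47, 7.27 and 7.14 in untreated and 8.90, 9.11 and 8.94 in treated shoots, a rise of 1.69, and it fell by 0.82 in roots. SDP1, a lipase that breaks down stored triacylglycerol, fell by 0.66 and rose by 0.72. Their differences between organs passed with any 1 array left out, but their calls within an organ were mostly fragile. The shoot call of AKINBETA1 (limma adjusted p = 0.0465) was lost when 1 of 9 arrays was left out, all but untreated root replicates 2 and 3 and untreated shoot replicate 3 (0.0513 to 0.192). The root call of SIS (0.0349) was lost when 1 of 7 was left out, namely untreated root replicates 2 and 3, untreated shoot replicate 2, treated root replicates 1 and 2 and treated shoot replicates 1 and 3 (0.0512 to 0.0826). SDP1 lost its root call when 1 of 7 was left out, namely the 3 untreated root arrays, untreated shoot replicate 1, treated root replicates 2 and 3 and treated shoot replicate 1 (0.0543 to 0.136), and its shoot call without untreated shoot replicate 1 or 3 or treated shoot replicate 1 or 2 (0.0587 to 0.135). On the 8 arrays not low in 25S, the shoot difference of AKINBETA1 was 0.55 (0.74) and its difference between organs -1.98 (0.0521), the root difference of SIS was -0.63 (0.134), and the shoot difference of SDP1 was 1.11 (0.0835).

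In the reverse class, AT4G01700 was at 8.08, 7.04 and 7.44 in untreated roots, 8.67, 8.63 and 9.11 in treated roots, 7.33, 7.56 and 6.54 in untreated shoots and 5.92, 5.45 and 5.62 in treated shoots. Untreated organs overlapped, and treated organs stood about 3 log2 units apart. It rose by 1.28 ± 0.29 in roots and fell by 1.48 ± 0.29 in shoots (limma adjusted p of 0.0239 and 0.0123), a difference of 2.76 ± 0.41 (0.00308). AT1G55210 rose by 1.11 and fell by 1.23, AT3G61820 rose by 1.01 and fell by 0.92, and AT3G01720 rose by 0.76 and fell by 0.79. The differences of the 4 genes passed with any 1 array left out, but their calls within an organ did not.

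Without single root arrays the root calls of the 4 genes were lost as follows: AT4G01700 and AT3G61820 without untreated replicate 2 or 3 or treated replicate 2 or 3 (adjusted p 0.0508 to 0.106, and 0.0597 to 0.115), AT1G55210 without any untreated replicate or treated replicate 3 (0.0628 to 0.124), and AT3G01720 without untreated replicate 2 or treated replicate 2 or 3 (0.0502 to 0.0832). Their shoot calls were lost without untreated shoot replicate 1 or 2 in each case. AT4G01700 also lost it without treated shoot replicate 2 (0.0607 to 0.0636), AT3G01720 without treated shoot replicate 1 or 3 (0.0504 to 0.0794), while for AT1G55210 these 2 were the only ones (0.0803 and 0.0946). AT3G61820 lost it without 9 of the 12 arrays, which were the 3 untreated root, the 3 untreated shoot, treated root replicate 2 and treated shoot replicates 2 and 3 (0.0568 to 0.192). When the arrays low in 25S were left out, the shoot differences of AT4G01700, AT1G55210, AT3G61820 and AT3G01720 were -1.01, -1.14, -1.14 and -0.40 (adjusted p of 0.461, 0.379, 0.0977 and 0.721). The root rise of AT1G55210 was then 1.17 (0.0646). The difference between organs then passed for AT3G61820 and was lost for AT4G01700 (2.36, 0.0682), AT1G55210 (2.30, 0.0787) and AT3G01720 (1.13, 0.0984).

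Responses in roots alone included oxidation, transport and wall genes. NDB2 (AT4G05020), an alternative NAD(P)H dehydrogenase of mitochondria, was at 7.0, 6.91 and 6.45 in untreated and 8.28, 8.16 and 8.43 in treated roots. In shoots it was at 8.10, 8.46 and 7.44 untreated and 7.79, 7.33 and 7.52 treated, so those groups overlapped. NDB2 rose by 1.50 ± 0.23 in roots (limma adjusted p = 0.00245), against -0.45 ± 0.23 in shoots (0.424), and the difference was 1.96 ± 0.33 (0.00626). OCT1 (AT1G73220), a carnitine transporter, was at 4.07, 4.18 and 4.51 in untreated roots and 7.22, 6.44 and 7.13 in treated roots, and stayed between 4.07 and 4.36 on all shoot arrays. Its root rise was 2.68 ± 0.19 and its shoot difference -0.02 ± 0.19. XTH19 (AT4G30290), a xyloglucan endotransglucosylase/hydrolase, rose by 1.70 ± 0.23 in roots, where it went from 6.31, 5.67 and 6.69 to 8.14, 7.76 and 7.87, and lay at 4.25 to 4.81 on the shoot arrays. After the low-25S arrays were left out, the differences between organs were 1.52 for NDB2 (0.0745) and 1.25 for XTH19 (0.245), neither of which passed, while that of OCT1 passed (0.0288).

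A glucosyltransferase and a glutathione S-transferase also rose in roots alone. UGT72E2 (AT5G66690), a close relative of UGT72E1, was at 8.55, 8.12 and 8.66 in untreated and 9.31, 9.55 and 9.82 in treated roots, a rise of 1.12 ± 0.16 (limma adjusted p = 0.00128), and at 4.64 to 4.88 on the shoot arrays. Thus UGT72E1 rose in both organs and UGT72E2, near the bottom of the scale in shoots, in roots. ATGSTF13 (AT3G62760), a phi-class glutathione S-transferase, rose by 0.97 ± 0.11 in roots (0.000269) and lay at 3.98 to 4.18 in shoots. CYP71B6 (AT2G24180), a cytochrome P450, rose by 0.50 ± 0.12 in roots against -0.39 ± 0.12 in shoots. Its root call (0.027) was lost without untreated root replicate 1 or 2 or treated root replicate 3 (0.0525 to 0.101), and its difference of 0.89 ± 0.16 passed with any 1 array left out. Beside OCT1, the single-gene root-alone rises with the largest differences between organs were AT1G65500 (3.17 ± 0.27 in roots and -0.59 ± 0.27 in shoots), AT4G36430 (2.87 ± 0.29 and -0.01 ± 0.29), AT3G09440 (1.81 ± 0.30 and -0.99 ± 0.30) and AT1G14960 (2.52 ± 0.17 and -0.09 ± 0.17). Their root and difference calls held when any 1 array was left out. The shoot groups of AT1G65500, AT3G09440 and CYP71B6 did not overlap, although no shoot difference passed (limma adjusted p of 0.33, 0.0965 and 0.0843). Once the arrays low in 25S were left out, the differences between organs were lost for UGT72E2 (1.36, adjusted p = 0.0943), ATGSTF13 (0.87, 0.129), CYP71B6 (0.72, 0.158) and AT4G36430 (3.08, 0.0745), and the root rise of CYP71B6 was 0.38 (0.119).

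Falls in roots alone included a defensin and an enzyme of fermentation. PDF2.1 (AT2G02120), a plant defensin, was at 6.85, 7.19 and 7.25 in untreated and 4.30, 4.34 and 4.72 in treated roots, and at 3.79 to 3.97 on the shoot arrays. PDF2.1 fell by 2.64 ± 0.14 in roots (limma adjusted p = 9.33e-07), towards the level it has in shoots. At that level a fall in shoots could hardly have been seen. PDC2 (AT5G54960), a pyruvate decarboxylase of ethanol fermentation, was at 9.96, 8.84 and 9.0 in untreated and 8.26, 7.0 and 6.81 in treated roots and at 11.08 to 11.79 in shoots. It fell by 1.91 ± 0.36 in roots (0.00887) against 0.24 ± 0.36 in shoots. The difference of -2.15 ± 0.52 (0.0347) was lost without untreated root replicate 1, treated root replicate 2 or 3, or any shoot array (0.0502 to 0.0897). Without the arrays low in 25S it was -2.66 (0.0745), whereas the difference of PDF2.1 passed (0.0138).

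AT5G62360 fell by 4.47 ± 0.23, the largest single-gene fall in roots alone, from 9.28, 9.46 and 9.06 to 5.03, 4.53 and 4.84 in roots. In shoots it was at 11.37, 11.58 and 11.61 untreated and 10.30, 10.70 and 11.33 treated, a difference of -0.74 ± 0.23 that did not pass (limma adjusted p = 0.093) although the groups did not overlap. AT1G56300 fell by 2.85 ± 0.20 in roots and was 0.28 ± 0.20 higher in shoots, where it began at 10.23. AT5G39580 fell by 3.19 ± 0.47, with untreated root arrays at 8.96, 8.86 and 6.60, so replicate 3 stood well below the other 2. It lay at 3.73 to 4.14 on the shoot arrays, near the bottom of the scale, where a fall could hardly have been seen. AT2G16365 fell by 2.56 ± 0.40 and AT1G76590 fell by 1.95 ± 0.24, against 0.43 and 0.81 in shoots. The shoot groups of AT1G56300 and AT1G76590 did not overlap, although neither shoot difference passed (limma adjusted p of 0.7 and 0.0828). With the low-25S arrays left out, the differences between organs of AT5G39580 and AT2G16365 were -3.11 (0.22) and -2.75 (0.127), and those of AT5G62360, AT1G56300 and AT1G76590 passed.

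Of 17 probe sets of the auxin response, 2 rose in shoots alone and the other 15 were called in neither organ, with list medians of 0.08 in roots and 0.01 in shoots. The 2 were IAA29 and HAT2. IAA29 (AT4G32280), an Aux/IAA repressor of auxin signalling, was at 5.89, 5.67 and 6.01 in untreated and 7.60, 7.65 and 7.35 in treated shoots, and at 4.60 to 5.29 on the root arrays. IAA29 rose by 1.68 ± 0.19 in shoots (limma adjusted p = 0.000409) against 0.01 ± 0.19 in roots. HAT2 (AT5G47370), a homeodomain-leucine zipper factor induced by auxin, rose by 1.41 ± 0.22 in shoots, from 6.96, 6.81 and 7.25 to 8.27, 8.60 and 8.37, against -0.06 ± 0.22 in roots. The HAT2 difference of -1.47 ± 0.31 (0.0183) was lost without untreated root replicate 2, untreated shoot replicate 1 or 2 or treated shoot replicate 2 (0.0521 to 0.055). On the 8 arrays not low in 25S, neither gene was shown to differ between organs, at -1.28 for IAA29 (0.112) and -1.27 for HAT2 (0.247). The shoot rise of IAA29 then passed (0.045) and that of HAT2 did not (1.24, 0.251).

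EXPA8, an expansin that loosens walls, was chosen after its values were seen and rose by 1.43 ± 0.20 in shoots, where it was at 7.83, 7.96 and 8.78 untreated and 9.67, 9.73 and 9.47 treated. In roots it was at 4.27 to 4.52. Its difference between organs was lost without untreated root replicate 2 or untreated or treated shoot replicate 2 (adjusted p 0.0503 to 0.0516), and without the arrays low in 25S its shoot rise was 0.82 (0.144) and the difference -0.79 (0.19). PORB (AT4G27440), a protochlorophyllide oxidoreductase of chlorophyll synthesis, rose by 0.99 ± 0.19 in shoots (limma adjusted p = 0.0103), from 9.85, 9.77 and 9.97 to 11.22, 10.72 and 10.63. In roots its difference was -0.64 ± 0.19, which did not pass (0.0783) although the root groups did not overlap. Its shoot call was lost without untreated shoot replicate 2 (0.0525). When the arrays low in 25S were left out, the rise was 0.71 (0.377) and the difference between organs -1.22 (0.118). AOP1 (AT4G03070), an oxygenase of the glucosinolate locus, showed little spread, at 5.40, 5.37 and 5.40 untreated and 6.29, 6.23 and 6.34 treated, a rise of 0.90 ± 0.09. BGLU44 (AT3G18080), a beta-glucosidase, rose by 0.88 ± 0.14 in shoots, from 10.63 to 11.51, against -0.38 ± 0.14 in roots. After the low-25S arrays were left out, the shoot rises were 0.89 for AOP1 (0.0587) and 0.84 for BGLU44 (0.251), and the differences between organs -0.78 (0.124) and -1.30 (0.103), so all 4 calls were lost. The largest shoot-alone rise with a single gene was AT4G12980, which went from 5.05, 5.07 and 5.22 to 8.16, 8.50 and 8.15 in shoots and lay at 4.92 to 5.65 in roots. It rose by 3.16 ± 0.18 against -0.13 ± 0.18, and the calls held without the arrays low in 25S.

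After AT4G12980, the single-gene shoot-alone rises with the largest differences between organs were AT2G20670 (2.09 ± 0.42), AT5G57340 (1.39 ± 0.27), AT1G69160 (1.91 ± 0.35) and AT5G48490 (2.06 ± 0.28). Their root differences were -0.67, -0.77, -0.24 and 0.12 in that order, and none passed. AT2G20670 lost its calls without untreated shoot replicate 1 (adjusted p of 0.0576 for shoots and 0.0568 for the difference). AT5G57340 lost its shoot call without untreated or treated shoot replicate 2 (0.0595 and 0.0614). AT1G69160 lost its difference without 8 of the 12 arrays, namely replicates 1 and 2 of each untreated organ and replicates 2 and 3 of each treated organ (0.0547 to 0.0746). Once the arrays low in 25S were left out, none of the 4 passed. The shoot rises of AT2G20670, AT5G57340, AT1G69160 and AT5G48490 were then 1.83, 0.97, 1.87 and 1.44 (adjusted p of 0.0879, 0.418, 0.126 and 0.174), and the differences between organs -2.02, -1.94, -2.27 and -1.22 (0.0939, 0.0939, 0.1 and 0.276).

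In several falls in shoots alone, the 2 untreated shoot arrays low in 25S stood well above the remaining one. Hsp70-2 (AT5G02490), a chaperone that holds unfolded proteins, was at 9.29 and 9.49 on untreated shoot replicates 1 and 2 and at 7.90 on replicate 3, against 7.25, 6.71 and 7.23 with cadmium. In roots it was at 6.48, 6.34 and 6.48 untreated and 7.25, 7.35 and 7.44 treated. Hsp70-2 fell by 1.83 ± 0.32 in shoots (limma adjusted p = 0.00673). In roots it was 0.91 ± 0.32 higher, which did not pass (0.153) although the root groups did not overlap. Without the arrays low in 25S its shoot difference was -0.93 (0.149) and the difference between organs was 1.89 (0.0269). The same split among untreated shoot arrays was seen in PUB19 (AT1G60190), a ubiquitin ligase, at 8.01, 7.98 and 6.64, and in AT2G38240, at 8.14, 8.05 and 6.72, and AT5G59670, at 7.19, 7.17 and 6.20. PUB19 fell by 2.07, AT2G38240 fell by 2.05 and AT5G59670 fell by 1.76. With the 25S value as a covariate, the shoot calls of Hsp70-2, PUB19, AT2G38240 and AT5G59670 held. Of these genes, only PUB19 then lost its difference between organs. Whether the 25S signal is a cause of any part of these falls was not tested.

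Differences of these genes also depended on single arrays. The difference between organs was lost for PUB19 without 9 arrays, which were replicates 1 and 2 of each untreated organ, treated root replicates 2 and 3 and the 3 treated shoot arrays (adjusted p 0.0541 to 0.0847). For AT5G59670 it was lost without 8, the same less treated shoot replicate 1 (0.0501 to 0.0676). For AT2G38240 it was lost without untreated root replicate 2, untreated shoot replicate 2 or treated shoot replicate 2 (0.0503 to 0.0528). With the low-25S arrays left out, the shoot differences of PUB19, AT2G38240 and AT5G59670 were -1.20, -1.22 and -1.37 (adjusted p of 0.222, 0.0945 and 0.123), and the differences between organs 1.55, 1.21 and 1.88 (0.14, 0.128 and 0.0676).

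AT1G07050 and UGT71B1 fell without that split. AT1G07050 was at 8.94, 9.34 and 9.79 in untreated and 6.30, 5.80 and 6.41 in treated shoots, and at 3.84 to 4.13 on the root arrays. It fell by 3.19 ± 0.21 (limma adjusted p = 1.03e-05), and the shoot difference was -3.69 without the arrays low in 25S (0.00406). UGT71B1 (AT3G21750), a glucosyltransferase, was at 7.01, 7.39 and 7.69 untreated and 6.32, 5.79 and 5.86 treated in shoots, and fell by 1.37 ± 0.21 (0.00248), against 0.27 ± 0.21 in roots. Both genes lay near the bottom of the scale in roots, so a fall there could hardly have been seen.

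**Figure D3:**
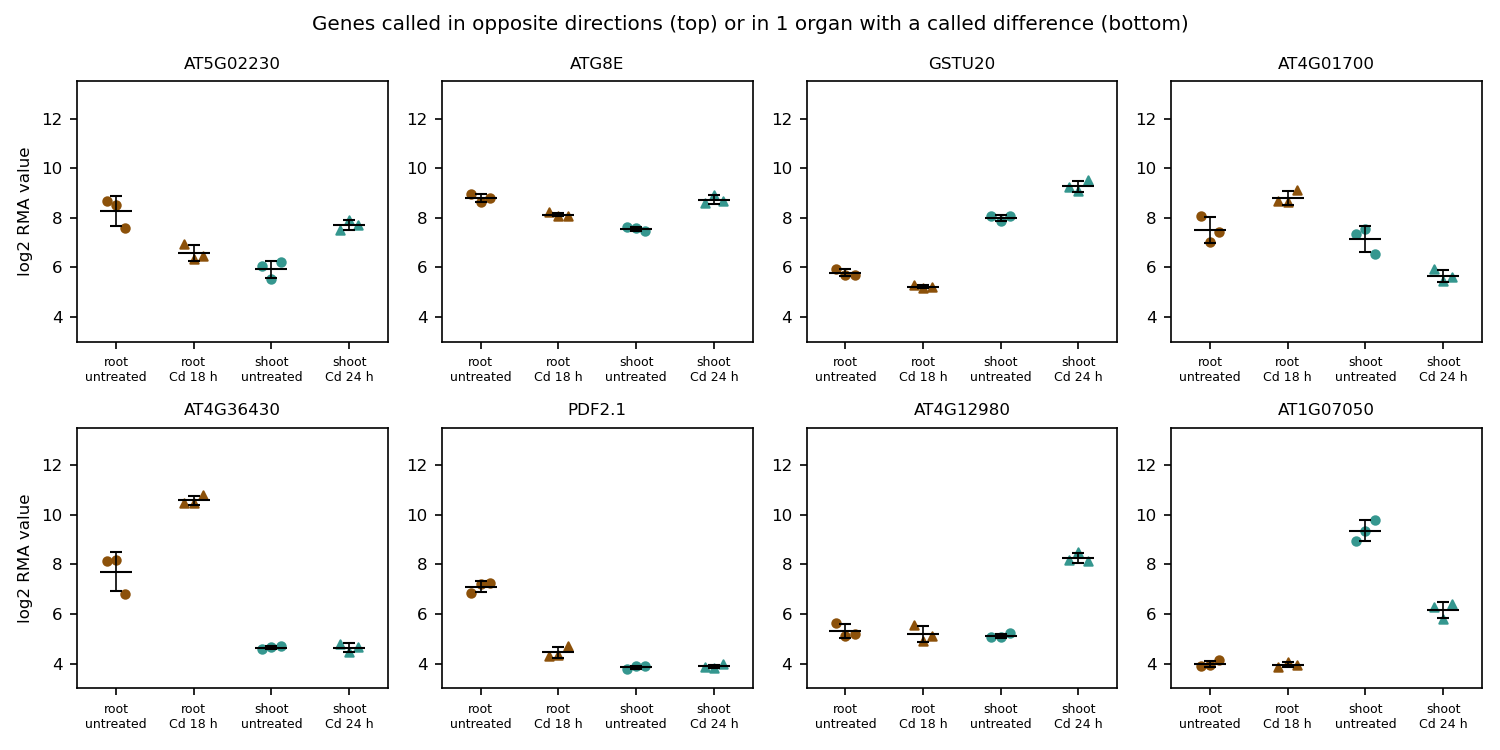
Log2 expression value of 8 genes on each of the 12 WT arrays (brown root, teal shoot; circles untreated, triangles cadmium; black marks the group mean with SD, n = 3). In the top panels AT5G02230, ATG8E and GSTU20 fall in roots and rise in shoots and AT4G01700 does the reverse; in the bottom panels AT4G36430 and PDF2.1 change in roots, and AT4G12980 and AT1G07050 change in shoots.

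Most probe sets that responded in 1 organ did not have a low value in the other, as is true of all probe sets. Low is used here for the lowest 40% of probe sets by mean value in an organ. Of the 178 root-alone rises, 67 (37.6%) were low in shoots, and of the 238 shoot-alone rises, 84 (35.3%) were low in roots. For falls these were 52 of 278 (18.7%) and 34 of 151 (22.5%). These shares lie below the 40% that the definition gives over all probe sets, but for rises they are near it. Among calls with no called difference, 25.4% of root calls were low in shoots and 27.4% of shoot calls were low in roots. The rises confined to an organ lie above those shares and the falls below them.

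Gene groups were counted by organ, over probe sets with a single listed gene and beside rates over all probe sets of 2.18% rising and 3.32% falling in roots and 2.66% rising and 2.31% falling in shoots. Lists were matched by gene symbol, synonym or locus. Members without a single listed gene are not counted, nor are those whose names the lists do not hold, so the counts cover matched members only. Of 52 UDP-glycosyltransferases, 6 rose and 1 fell in roots, and 2 rose and 3 fell in shoots, with medians of 0.22 and 0.00 beside 0.02 and 0.00 over all probe sets. The 3 members of the UGT72E group all rose in roots: UGT72E3, read after its values were seen, by 0.77. The call of UGT72E3 (limma adjusted p = 0.023) was lost without untreated root replicate 2 or treated root replicate 1 or 3 (0.0501 to 0.0935) and without the arrays low in 25S (0.64, 0.125). Of 14 glutathione S-transferases, 3 rose and 1 fell in roots and 2 rose in shoots. GSTU22 (AT1G78340) rose by 0.76 ± 0.14 in roots and its shoot difference was 0.01. None of these 14 glutathione S-transferases was called higher in both organs.

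The 14 autophagy and senescence genes had medians of opposite sign, -0.20 in roots and 0.31 in shoots. In roots 2 fell and in shoots 2 rose and 1 fell. ATG8B (AT4G04620) rose by 0.79 ± 0.17 in shoots (limma adjusted p = 0.0187), where it was at 6.67, 6.69 and 6.70 untreated and 7.29, 7.63 and 7.52 treated. That call was lost without untreated shoot replicate 1 or 2 or treated shoot replicate 2 or 3 (0.0631 to 0.0926). On the 8 arrays not low in 25S, the rise was 0.88 (0.345). WRKY53 (AT4G23810), a transcription factor of senescence and defence, fell by 1.66 ± 0.34 in shoots (0.0161) against 0.20 ± 0.34 in roots, and the difference of 1.86 ± 0.49 just missed the threshold (0.052). Its untreated shoot arrays were at 8.88, 9.64 and 8.21, and the call was lost without untreated shoot replicate 1 or 2 or treated shoot replicate 1 (0.0581 to 0.0639). When the arrays low in 25S were left out, the shoot difference was -0.85 (0.697).

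Of 6 heat shock probe sets, 1 rose in roots and 1 fell in shoots, with medians of 0.48 and -0.28. AT2G20560, placed in that list by its locus, was at 4.78, 4.95 and 4.57 in untreated and 6.59, 6.23 and 6.28 in treated roots, a rise of 1.60 ± 0.20 (limma adjusted p = 0.000553). In shoots it was at 6.05, 5.91 and 5.19 untreated and 5.22, 5.32 and 5.22 treated. The organ difference of 2.06 ± 0.28 passed (0.00172), and was 1.41 without the arrays low in 25S (0.043).

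Of 10 probe sets of the iron deficiency response, 2 rose in shoots and 1 fell in roots. BHLH101 (AT5G04150), a transcription factor that is induced when iron is short, was at 4.50, 4.08 and 4.32 in untreated and 5.12, 7.59 and 6.79 in treated shoots. Treated shoot replicate 1 rose far less than the other 2, and the rise of 2.20 ± 0.44 (limma adjusted p = 0.0138) was lost without untreated shoot replicate 2 or treated shoot replicate 3 (0.0566 and 0.065). AT1G47400, placed in the list by its locus, was at 4.42, 4.67 and 4.72 in untreated and 5.91, 6.94 and 7.20 in treated roots, and at 5.31, 4.67 and 4.74 in untreated and 6.38, 9.22 and 7.44 in treated shoots. Its groups did not overlap in either organ, yet with 2.08 ± 0.56 in roots it missed the threshold (0.0525), and with 2.77 ± 0.56 in shoots it passed (0.0137). The shoot call was lost without untreated shoot replicate 2 (0.0633). bHLH121 (AT3G19860), a regulator of the iron deficiency response, fell by 0.93 ± 0.19 in roots (0.014), against 0.34 ± 0.19 in shoots. Its root call was lost without untreated root replicate 2 or treated root replicate 2 or 3 (0.0511 to 0.0541), and its difference without untreated shoot replicate 1 or 2, treated root replicate 2 or treated shoot replicate 2 (0.0511 to 0.0618). After the low-25S arrays were left out, the difference between organs was -1.10 (0.199).

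Of 15 dehydration and cold probe sets, 4 fell in roots and 3 in shoots, and the 3 that fell in shoots were COR27, AT4G33980 and LTI30. LTI30, a dehydrin chosen after its values were seen, was at 11.95, 11.97 and 11.76 in untreated and 9.93, 9.70 and 10.23 in treated roots, and fell by 1.94 ± 0.29. Its shoot groups overlapped, at 8.62, 8.36 and 7.36 untreated and 7.39, 7.01 and 6.59 treated, with a call just under the threshold (limma adjusted p = 0.0496). That call was lost when 1 of 10 arrays was left out, all but untreated shoot replicate 3 and treated shoot replicate 1 (0.0582 to 0.205), and without the arrays low in 25S the shoot difference was -0.56 (0.645). COR47 (AT1G20440), another dehydrin, fell by 0.78 ± 0.12 in roots and its shoot difference was -0.17 ± 0.12, with no called difference between organs (0.0593). The list medians were near 0, at -0.02 in roots and -0.11 in shoots, so most members did not follow these 4.

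Of 68 probe sets of expansins, xyloglucan endotransglucosylases and other wall genes, 4 rose and 4 fell in roots, and 6 rose and 4 fell in shoots. Among 7 tubulins 1 fell in roots and 3 in shoots. TUB7 (AT2G29550) was at a difference of -0.02 in roots and fell by 1.25 in shoots (limma adjusted p = 0.0092), and lost that call without untreated shoot replicate 2 (0.0516). TUA6 (AT4G14960) fell by 0.65 ± 0.15 in shoots (0.0273) against 0.19 ± 0.15 in roots. Its shoot call was lost without any 1 of the 3 untreated shoot arrays or treated shoot replicate 2 or 3 (0.0514 to 0.129). Once the arrays low in 25S were left out, the shoot differences were -1.45 for TUB7 (0.131) and -0.96 for TUA6 (0.0921). Of 15 defensins, 2 fell in roots, and 2 rose and 1 fell in shoots. PDF1.2 (AT5G44420), a jasmonate-induced defensin, was at 9.65, 10.14 and 10.60 in untreated and 11.72, 11.01 and 12.60 in treated shoots, a rise of 1.65 ± 0.33 (0.0144), and at 4.48 to 5.05 in roots. The shoot call was lost without untreated shoot replicate 1 or 2 (0.057 and 0.072), and the difference between organs did not pass (0.139). Without the arrays low in 25S its rise was 1.21 (0.555).

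Photosynthesis and plastid genes changed little in number. Of 24 nuclear photosynthesis probe sets, 1 rose in roots and 2 in shoots, and of 69 plastid-encoded probe sets, 1 rose in shoots. RCA rose by 1.24 ± 0.18 in roots (limma adjusted p = 0.00141), from 6.12, 6.54 and 6.22 to 7.10, 7.77 and 7.74, which is far below its shoot level, and its shoot difference was 0.34 ± 0.18. Sulfate uptake and assimilation genes had 5 probe sets with a single gene, of which limma called 0 in either organ, and 1 in each organ had an unadjusted p under 0.05. For the 7 superoxide, peroxide and ascorbate probe sets limma also called 0, with 2 in roots and 1 in shoots at an unadjusted p under 0.05.

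A few metal and nutrient transporters passed in shoots. MTP11 (AT2G39450), a manganese transporter, rose by 0.70 ± 0.16 (limma adjusted p = 0.0243) against -0.05 in roots, 1 of 6 metal transport and binding probe sets to pass. Its call was lost without untreated shoot replicate 1 or 2 or treated shoot replicate 1 or 2 (0.0651 to 0.115). With the low-25S arrays left out, its rise was 0.65 (0.408). AT3G21670, which the annotation names NPF6.4, a member of the nitrate and peptide transporter family, rose by 2.13 in shoots against 0.35 in roots, and AT2G26690 (NPF6.2) by 1.18 against 0.40. Neither was shown to differ between organs. On the 8 arrays not low in 25S, the rise of AT2G26690 was 1.04 (adjusted p = 0.148), and that of AT3G21670 passed (0.0233).

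The 12 oas-a1.1 arrays share no array with the WT comparison and were fitted in the same way. The 25S control was below 7 on some of these too. They were untreated root replicate 1 (6), treated root replicate 1 (4.75) and treated shoot replicates 1 (5.38) and 2 (4.62). These arrays were kept in the fit. On the mutant arrays 1295 probe sets passed in roots (5.69%) and 506 in shoots (2.22%). Rises made up 3.11% of all probe sets in mutant roots and 1.28% in mutant shoots, and falls 2.58% and 0.941%. Of the 62 rises shared by WT organs, 33 (53.2%) were called higher in mutant roots and 14 (22.6%) in mutant shoots. Of the 78 shared falls, 47 (60.3%) and 11 (14.1%) were called lower. These shares are above the rates over all probe sets in each case. The arrays compared differ in genotype as well as being separate samples.

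Opposed responses were followed in the mutant arrays too. Of the 60 that fell in WT roots and rose in WT shoots, 4 (6.67%) were called lower in mutant roots and 5 (8.33%) higher in mutant shoots. Of the 20 of the reverse kind, 3 (15%) and 1 (5%) were called in the WT direction. ATG8E differed by -0.36 in mutant roots and -0.31 in mutant shoots, and AT5G02230 by -0.11 and -0.34, with no call. GSTU20 differed by -0.58 and 1.22, in the WT directions and with adjusted p of 0.397 and 0.0592. The difference of these shares from those of the shared class was not tested.

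Of the root-alone class, 61 of 178 rises (34.3%) and 77 of 278 falls (27.7%) were called in mutant roots. Of the shoot-alone class, 57 of 238 rises (23.9%) and 21 of 151 falls (13.9%) were called in mutant shoots. AT4G36430 rose by 3.13 in mutant roots and PDF2.1 fell by 2.57 there, with mutant shoot differences of -0.04 for both. AT4G12980 rose by 2.14 in mutant shoots (limma adjusted p = 0.000107) and UGT71B1 fell by 1.74 there (5.63e-05). COR27 fell by 3.54 in mutant roots and by 1.07 in mutant shoots, and CYP71B26 rose by 1.98 and 1.51. GR1 rose by 1.79 in mutant roots and its mutant shoot difference of 0.27 did not pass (0.51). Some calls went against WT. PDC2 rose by 1.19 in mutant roots (limma adjusted p = 0.0129). In mutant shoots EXGT-A3 fell by 0.60 (0.037) and AT4G33980 rose by 0.68 (0.0451). Opposite calls were made for 3 root-alone rises and 4 falls in mutant roots, and for 2 shoot-alone rises and 1 fall in mutant shoots. Of the shared classes, 1 rise and 1 fall were called the other way in mutant shoots, and 0 in mutant roots.

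**Figure D4:**
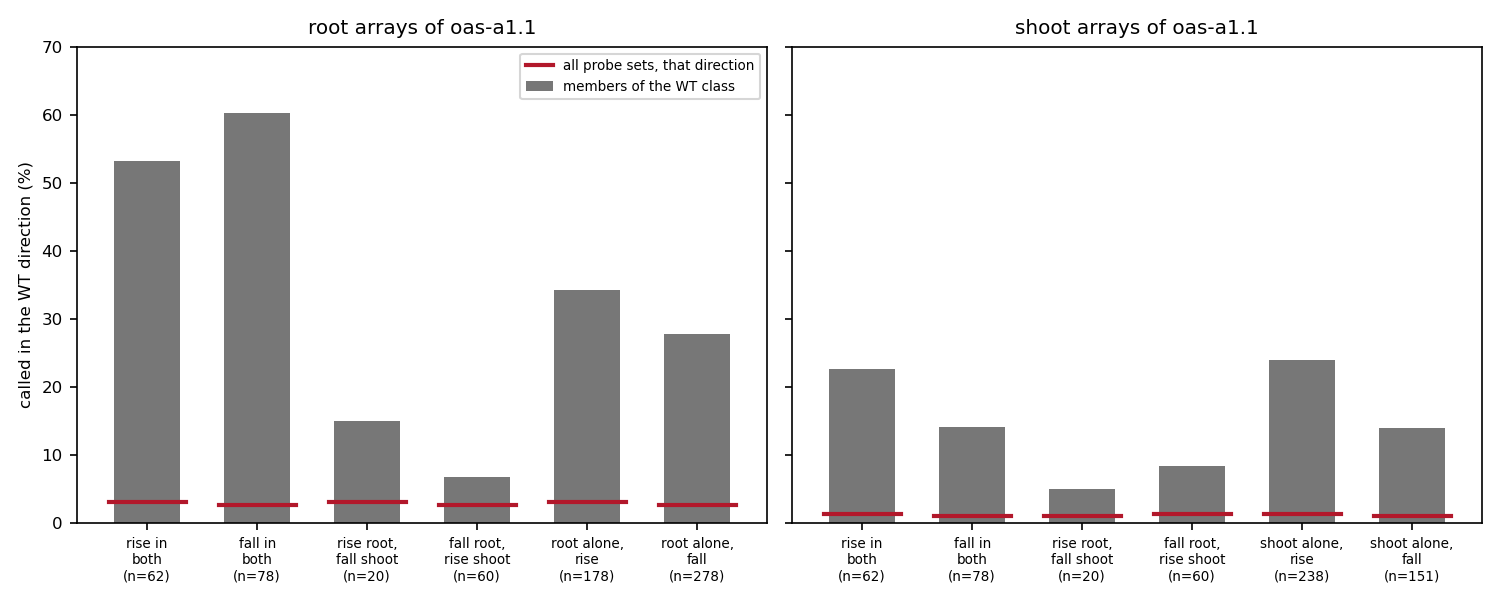
Grey bars give the percentage of each WT response class that was called in the same direction in the oas-a1.1 arrays, roots on the left and shoots on the right, with the class size below. Red lines give the percentage of all 22746 probe sets called in that direction; shared classes reach 53.2% and 60.3% in mutant roots, and the opposed classes 15% and 6.67%.

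Class sizes depended on single arrays. With 1 of the 12 arrays left out, shared rises numbered 41 to 65, shared falls 47 to 104, opposed probe sets 40 to 111, root-alone 280 to 811 and shoot-alone 190 to 685. The largest root-alone count came without treated root replicate 1 and the largest shoot-alone count without untreated shoot replicate 3. Of 164 calls for the named genes, 117 held with any 1 array left out.

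**Figure D5:**
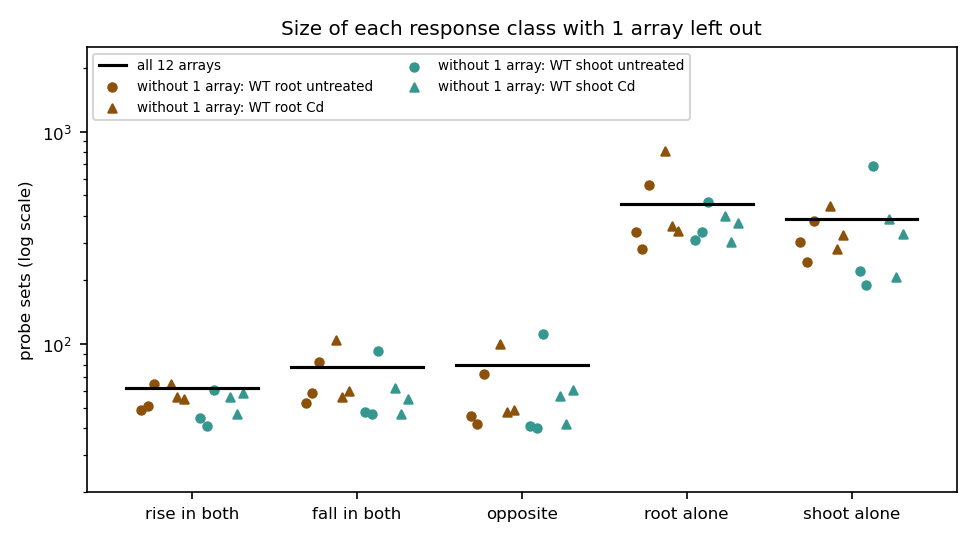
Number of probe sets in each response class (log scale) with all 12 WT arrays (black lines) and with 1 array left out (points, 3 for each group). Shared rises stay between 41 and 65, while root-alone responses run from 280 to 811 and shoot-alone responses from 190 to 685.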

How the data were processed

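Total RNA was hybridised to Affymetrix ATH1 arrays. The deposited values are log2 expression from RMA (background correction, quantile normalization and probe set summary) in the affy package, per the submitters' processing notes, which name no version and do not say whether arrays were normalized together. These log2 values were used as deposited, with 0 columns left over. After 64 control probe sets were left out, 22746 remained, unfiltered. The gene annotation supplied with the series lists 13513 probe sets with 1 gene, 503 with several and 8730 with none; 13436 of the 13513 matched RefSeq's TAIR10.1 gene table, used for names only, and 77 did not.

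The 4 WT groups each had their own mean in a model fitted with limma 3.58.1 in R 4.3.3 (lmFit and eBayes, 8 residual degrees of freedom), giving the root response, the shoot response and their difference. Tests were two-sided, adjusted by Benjamini and Hochberg over 22746 probe sets, and called under 0.05. The fit was tested on simulated data. SD covers the 3 arrays of a group, SE the model. No replicate block was used, and whether replicate numbers pair the arrays is not settled. Group means were subtracted before arrays were correlated. Untreated and treated arrays of the same number then correlated at 0.60, -0.15 and 0.44 in roots and 0.22, 0.04 and 0.29 in shoots. Those of different numbers correlated at -0.62 to 0.39 in roots and -0.39 to 0.33 in shoots. With block terms within each organ, 1855 root calls, 1587 shoot calls and 1807 differences passed.

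Members and gene lists were chosen with earlier results of these data known. Named genes are the leading single-gene probe sets of each class, not ending in s_at or x_at and with groups that do not overlap (6 shared rises and 6 falls, 4 of each opposed kind, 5 of each kind alone), and up to 3 called members of each list. The number of arrays limits precision. Promoter motifs were not analysed.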

Additional observations from a re-analysis of the deposited data

Results flagged for a closer look

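A response to cadmium that differed between roots and shoots, by limma's test of the root response minus the shoot response, is what marks the results here; 1091 probe sets did so. Organ and hours of treatment cannot be told apart in any of them. All values below are log2 differences, root minus shoot, and no explanation was weighed.

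Genes that changed one way in both organs, but by different amounts, were GR1 (1.40), AT4G33980 (-1.68) and AT1G73600 (-1.10). Of the opposed genes, those higher in roots were AT4G01700 (2.76), AT1G55210 (2.34), AT3G61820 (1.93) and AT3G01720 (1.54), and those higher in shoots were AT5G02230 (-3.50), AT4G16000 (-3.39), AT5G19120 (-2.87), AT3G15450 (-2.83), GSTU20 (-1.83) and ATG8E (-1.83).

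Root-alone rises were AT1G65500 (3.76), AT4G36430 (2.88), AT3G09440 (2.80), OCT1 (2.69), AT1G14960 (2.60), AT2G20560 (2.06), NDB2 (1.96), XTH19 (1.59), UGT72E2 (1.23), BGLU47 (1.07), ATGSTF13 (0.90) and CYP71B6 (0.89). Root-alone falls were AT5G62360 (-3.72), AT5G39580 (-3.24), AT1G56300 (-3.13), AT2G16365 (-2.99), AT1G76590 (-2.76), PDF2.1 (-2.67), PDC2 (-2.15) and bHLH121 (-1.27).

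Shoot-alone rises were AT4G12980 (-3.29), AT2G20670 (-2.75), AT5G57340 (-2.16), AT1G69160 (-2.14), AT5G48490 (-1.94), IAA29 (-1.67), PORB (-1.64), HAT2 (-1.47), BGLU44 (-1.26), CYP78A9 (-1.22), AOP1 (-0.80) and rpl14 (-0.70). Shoot-alone falls were AT1G07050 (3.15), Hsp70-2 (2.74), PUB19 (2.16), AT2G38240 (2.07), AT5G59670 (2.07), UGT71B1 (1.64) and TUA6 (0.85). Several differences, small and large, depended on single arrays: that of BGLU47 was lost when 1 of 11 of the 12 arrays was left out, that of TUA6 without 10, those of PUB19, PDC2 and rpl14 without 9, those of AT1G69160 and AT5G59670 without 8 and that of CYP78A9 without 5. Without the arrays low in 25S, 22 of 52 named differences held.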

How the results depend on the processing

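Over the alternatives run, 0 of 4531 recomputed values for the named genes changed sign, and 592 lost their call. The named genes were picked for groups that do not overlap in a called organ. Leaving out arrays cannot turn the sign there, so the absence of reversals does not show that directions are stable. With array weights 2734 probe sets were called in roots, 3534 in shoots and 3693 for the difference, with 123 shared rises, 222 shared falls, 306 opposed, 1352 root-alone and 1443 shoot-alone. With replicate block terms within each organ there were 1807 differences, 135 opposed, 761 root-alone and 657 shoot-alone; a block over all arrays moved no count by 1.5 times. The numbers were not taken to pair the arrays. With each organ alone on its 6 arrays 648 root calls, 49 shared falls and 40 opposed were left, and with both genotypes in each organ's fit 49 opposed. At 2-fold or more there were 502 root and 464 shoot calls, 27 shared rises, 30 shared falls, 22 opposed, 283 root-alone and 225 shoot-alone. At an adjusted p under 0.01 there were 33, 32, 24, 162 and 138 in these 5 classes. Without the 4 arrays low in 25S, an alternative chosen after seeing the data, 179 shoot calls, 244 differences, 17 shared rises, 22 shared falls, 12 opposed, 142 root-alone and 67 shoot-alone were left; the lone untreated shoot array is then assumed to vary like the other groups. Leaving out 1 array, or 1 replicate number in all 4 groups, gave 311 to 2016 root calls, 118 to 1554 shoot calls, 101 to 1601 differences, 17 to 65 shared rises, 8 to 104 shared falls, 3 to 111 opposed, 65 to 811 root-alone and 27 to 685 shoot-alone. The lowest counts came without replicate 2 of all groups. The cause of these moves was not tested, apart from the smaller number of arrays.

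Single arrays that moved a count by over 1.5 times were these. Root calls were 791 and 759 without untreated root replicates 1 and 2, 2016 without treated root replicate 1 and 822 without treated root replicate 3. Shoot calls were 600 and 552 without untreated shoot replicates 1 and 2 and 578 without treated shoot replicate 2. Differences were 663 without untreated root replicate 2, 646 and 644 without untreated shoot replicates 1 and 2 and 635 without treated shoot replicate 2. Shared rises were 41 without untreated shoot replicate 2, and shared falls 48 and 47 without untreated shoot replicates 1 and 2 and 47 without treated shoot replicate 2. The opposed class was 46 and 42 without untreated root replicates 1 and 2, 41 and 40 without untreated shoot replicates 1 and 2, 48 and 49 without treated root replicates 2 and 3, and 42 without treated shoot replicate 2. Root-alone responses were 280 without untreated root replicate 2, 811 without treated root replicate 1 and 303 without treated shoot replicate 2. Shoot-alone responses were 243 without untreated root replicate 2, 220, 190 and 685 without untreated shoot replicates 1, 2 and 3, and 206 without treated shoot replicate 2. Splits by direction moved more than totals in some cases. Quantile normalization repeated over all arrays gave 285 higher and 286 lower root-alone responses, and within organs 278 and 275; without treated root replicate 2 they were 182 and 177. Without untreated shoot replicate 3 there were 258 higher and 427 lower shoot-alone responses. The promoter motif description was not run, because no promoter sequences were used here. Small signals near the bottom of the scale limit what a fall can show. AKINBETA1, SIS, SDP1, EXPA8, LTI30 and UGT72E3 were recomputed only with single arrays and the arrays low in 25S left out.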
